A study of Mus musculus with 6 samples.

Results

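Gata1, Klf1, Tal1, Zfpm1, Nfe2, Gfi1b, Lmo2, Ldb1, Bach1 and Foxo3 encode transcription factors and cofactors that control red cell formation, and their messenger RNA was measured by RNA sequencing in bone marrow progenitors of mice with mutant ASXL1. The 10 genes were chosen by symbol from a deposited table of 24421 gene rows. All 10 have a row, and all 10 were among the 13548 genes that passed the filter on low counts. ASXL1-MT-KI mice have a mutant ASXL1 knocked in and were compared with wild type littermates; ASXL1 regulates chromatin, and mutations in it recur in myeloid cancers. Both groups were C57BL/6 mice of 8 to 12 weeks, with 3 libraries each, described as independent biological experiments; the sources used here do not give whether a library came from 1 animal, or what drives the allele. The cells, called LK, had been sorted as lacking lineage markers and carrying the receptor c-Kit, a gate that includes stem cells and progenitors of red cells, megakaryocytes and myeloid cells.

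GATA1 is the zinc finger factor that red cell, megakaryocyte, eosinophil and mast cell development depends on. It works with the cofactor FOG1, encoded by Zfpm1, and in a complex in which LDB1 and the LIM-only protein LMO2 bridge GATA1 to the helix-loop-helix factor TAL1. KLF1 activates genes of the red cell membrane, haem synthesis and globins, while GFI1B is a repressor that erythroid and megakaryocyte maturation requires. NF-E2, of which Nfe2 encodes the large subunit, and BACH1 bind Maf recognition elements with small Maf partners, NF-E2 as an activator and BACH1 as a repressor that haem inactivates. FOXO3 drives genes of antioxidant defence, autophagy and cell cycle exit, and in mouse erythroid cells it supports late maturation.

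The libraries held 40462168 to 47579480 gene counts, and values are CPM, counts scaled to a common library size, with trimmed mean (TMM) factors; summed levels of gene lists are CPM of the total count without these factors. Asxl1 itself was at 323.5, 326.6 and 310.2 CPM in ASXL1-MT-KI replicates 1 to 3, against 176.0, 170.0 and 165.1 CPM in wild type replicates 1 to 3 (log2 fold change 0.91, edgeR adjusted p = 9.72e-06). Kit, the gene of the sorted receptor, averaged 382.8 ± 11.7 CPM in ASXL1-MT-KI cells and 406.4 ± 41.0 CPM in wild type cells (SD, n = 3 each). Of the markers of gated-out lineages, Cd3g had no count in any library and Cd3e, Cd8a and Ms4a1 had at most 3. Others were present: Itgam had 1363 to 1938 counts per library, Adgre1 291 to 370 and Cd79a 40 to 110. Itgam and Adgre1 were named after their values were seen. The haemoglobin rows Hba-a1, Hba-a2, Hbb-bs, Hbb-bt, Hbb-b1 and Hbb-b2 were at 0 in every library, so globin output could not be read. In the comparison of genotypes, 1123 genes rose and 1042 fell, 16.0% of those tested at an adjusted p under 0.05; with total counts in place of TMM scaling 1562 rose and 767 fell. In each genotype the number 3 library was lower in red cell genes than the other libraries of that genotype. In ASXL1-MT-KI replicates 1 to 3, the 39 tested erythroid target genes of a list of 46 and the globin rows summed to 5360, 5735 and 4410 CPM. In wild type replicates 1 to 3 the sum was 4266, 4659 and 3134 CPM. In such bulk samples, fewer cells of a type and less RNA per cell cannot be told apart.

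The promoters of 4 of the genes are shown because these genes stand for the 2 patterns of the data: Klf1 and Gfi1b varied most between libraries of a genotype, and Bach1 and Foxo3 fell with the knock-in. Each run is from RefSeq on GRCm38.p6 and spans 250 bases before to 50 bases after the start of transcription, written along the gene's own strand. Capitals mark GATA sites, the letters AGATAA and also AGATAG, and likewise TGATAA and also TGATAG, on either strand. The Klf1 window is chr8:84901732-84902031 on the plus strand, Gfi1b is chr2:28621933-28622232 on the minus strand, Bach1 is chr16:87698704-87699003 on the plus strand and Foxo3 is chr10:42276646-42276945 on the minus strand.
Klf1: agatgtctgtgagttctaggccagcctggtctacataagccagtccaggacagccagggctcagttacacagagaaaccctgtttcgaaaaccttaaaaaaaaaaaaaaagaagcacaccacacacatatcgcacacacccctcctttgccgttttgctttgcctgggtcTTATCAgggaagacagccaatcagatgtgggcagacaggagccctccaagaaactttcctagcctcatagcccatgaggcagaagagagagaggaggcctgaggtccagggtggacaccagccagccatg
Gfi1b: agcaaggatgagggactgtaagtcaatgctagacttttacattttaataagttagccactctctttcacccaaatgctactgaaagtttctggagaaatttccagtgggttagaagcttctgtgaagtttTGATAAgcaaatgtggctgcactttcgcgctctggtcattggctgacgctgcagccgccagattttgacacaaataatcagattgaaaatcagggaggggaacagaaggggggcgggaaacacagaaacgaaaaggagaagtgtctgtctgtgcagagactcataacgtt
Bach1: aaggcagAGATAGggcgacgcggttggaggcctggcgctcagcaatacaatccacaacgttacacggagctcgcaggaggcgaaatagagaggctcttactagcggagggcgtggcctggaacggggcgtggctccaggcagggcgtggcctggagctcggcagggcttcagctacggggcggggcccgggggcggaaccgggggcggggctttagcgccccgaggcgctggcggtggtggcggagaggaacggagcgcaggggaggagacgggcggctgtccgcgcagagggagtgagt
Foxo3: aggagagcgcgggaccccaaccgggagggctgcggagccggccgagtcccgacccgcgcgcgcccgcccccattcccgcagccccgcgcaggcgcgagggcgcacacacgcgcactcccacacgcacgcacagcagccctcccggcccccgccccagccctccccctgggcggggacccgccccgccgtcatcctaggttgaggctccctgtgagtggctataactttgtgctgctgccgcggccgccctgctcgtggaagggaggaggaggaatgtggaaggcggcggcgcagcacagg
The GATA site begins 80 bases before the start in Klf1, 120 before it in Gfi1b and 243 before it in Bach1, and these letters are not in the Foxo3 window. The 8 genes with a RefSeq promoter entry have 11 windows together, and some have more than 1. Of these 11 windows 5 hold a GATA site, beside 29.8% of all 32851 mouse promoter windows of this length. They belong to 5 genes, namely Klf1, Gfi1b, Bach1, Tal1 and Ldb1. Bach1 and Foxo3 have GC-rich windows, at 69.7% and 75.0% G and C, against a median of 52.7% over all windows. Klf1 is at 51.3% and Gfi1b at 44.3%. High values are not limited to the genes that fell. Zfpm1 is at 73.7%, and the windows of Ldb1 are at 71.3%, 67.3% and 51.0%. Those of Tal1 are at 50.7% and 64.3%, and that of Gata1 is at 57.3%. CACC or GC boxes are CCACACCC, CCACGCCC, CCCCACCC or CCCCGCCC on either strand, with overlaps counted. They occur 5 times in Bach1, 2 times in Foxo3 and at neither Klf1 nor Gfi1b. They also occur 4 times in Zfpm1, and 6 of the 11 windows, of 6 genes, hold at least 1. Of all windows 29.7% have at least 1. The antioxidant response element TGACNNNGC, a form of the Maf recognition element, begins 77 bases before the start in Gfi1b. It is in 3 of the 11 windows, those of Gfi1b, Zfpm1 and Ldb1, and in 12.4% of all windows. The FOXO site GTAAACA is in none of the 11 windows and in 3.65% of all windows. A match describes letters and does not show that a factor binds.

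Per kilobase of exon (CPM divided by the length of all annotated exons in GENCODE M21), Lmo2 had the highest level, at 144.4 ± 9.68 in ASXL1-MT-KI and 152.8 ± 4.23 in wild type cells (SD, n = 3 each). Zfpm1 came next, at 71.1 ± 9.69 in ASXL1-MT-KI and 69.9 ± 13.4 in wild type cells. Klf1 was at 57.4 ± 10.5 in ASXL1-MT-KI and 41.4 ± 13.2 in wild type cells, and Ldb1 at 48.9 ± 3.34 and 52.5 ± 3.67 in the same order of genotypes. Klf1 stood above Ldb1 in ASXL1-MT-KI cells and below it in wild type cells, but their libraries overlapped in both. Nfe2 had a lower mean than these, at 43.3 ± 2.60 in ASXL1-MT-KI and 39.0 ± 2.37 in wild type cells. Its libraries overlapped those of Klf1 in both genotypes and those of Ldb1 in ASXL1-MT-KI cells, where Klf1 also overlapped Zfpm1. Gfi1b, Tal1 and Gata1 followed, with overlapping libraries in both genotypes, Gata1 at 30.2 ± 4.20 in ASXL1-MT-KI and 25.3 ± 5.54 in wild type cells. Bach1 and Foxo3 had the lowest means and were separate from each other. Foxo3 was also separate from the rest, as was Bach1 in ASXL1-MT-KI cells. In wild type cells Gfi1b in replicate 3, at 18.1, lay below Bach1 in replicates 1 and 3, at 18.4 and 18.3. Bach1 was at 12.3 ± 0.995 in ASXL1-MT-KI and 17.9 ± 0.798 in wild type cells. Foxo3 was at 9.64 ± 0.308 in ASXL1-MT-KI and 11.6 ± 0.705 in wild type cells.

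**Figure D1:**
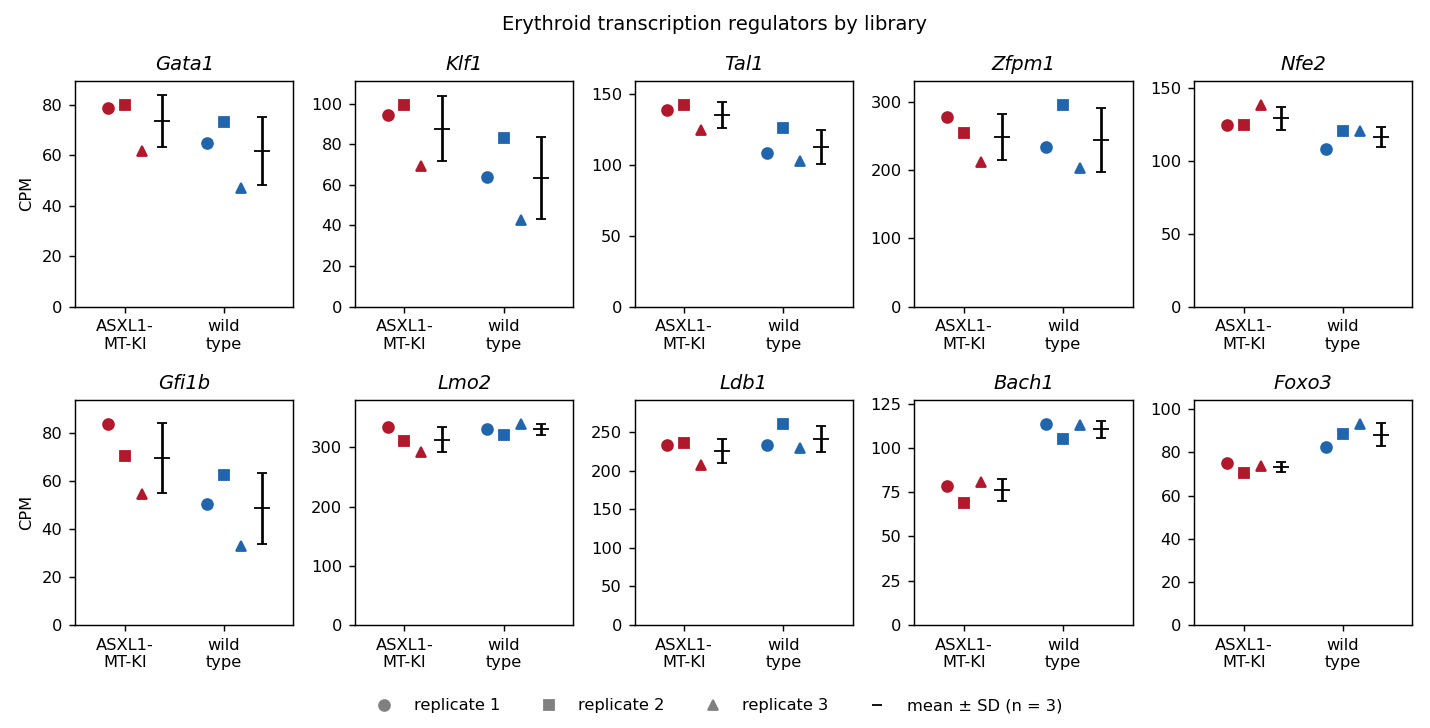
CPM of the 10 regulators (vertical axes, starting at 0) in each ASXL1-MT-KI (red, left) and wild type (blue, right) library, with the replicate number as the symbol and the mean ± SD of 3 libraries in black. Bach1 and Foxo3 were lower in every ASXL1-MT-KI library than in any wild type library, and Nfe2 was higher in every one. The triangles of replicate 3 lay lowest in both genotypes for Klf1, Gfi1b, Gata1, Zfpm1, Tal1 and Ldb1.

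Bach1 and Foxo3 fell in ASXL1-MT-KI cells, and none of the 10 regulators rose in the main edgeR test. The 2 falls are read beside 7.69% of all tested genes that fell and the absence of rises beside 8.29% that rose. At an unadjusted p under 0.05, Tal1 and Nfe2 were higher, while 2194 of all 13548 tested genes were higher and 1927 lower at this level. DESeq2 called 1 rise (Tal1), beside 8.98% of all genes, and limma-voom 0, beside 8.30%. Both Bach1 and Foxo3 fell with these tools too, beside 8.63% of all genes in DESeq2 and 7.66% in limma-voom. The groups did not overlap for Bach1 and Foxo3, both lower, and for Nfe2, which was higher, while 17.2% of all genes were lower and 18.0% higher in every ASXL1-MT-KI library than in any wild type library. Without ASXL1-MT-KI replicate 2, Bach1 was the only fall of the 10. Leaving out ASXL1-MT-KI replicates 1 to 3 in turn, 4.92%, 4.04% and 6.05% of all genes rose and 5.23%, 4.26% and 6.43% fell; leaving out wild type replicates 1 to 3 in turn, 3.91%, 6.57% and 8.89% rose and 4.34%, 6.69% and 7.61% fell.

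Bach1, on chromosome 16 from 87698945 to 87733346 (GRCm38), had 78.8, 69.1 and 80.6 CPM in ASXL1-MT-KI replicates 1 to 3, against 113.7, 104.8 and 113.0 CPM in wild type replicates 1 to 3. Every ASXL1-MT-KI library lay below every wild type library, and the highest of the first was well under the lowest of the others. The mean was 76.2 ± 6.15 CPM in ASXL1-MT-KI and 110.5 ± 4.93 CPM in wild type cells, so that Bach1 fell by 31.1% (log2 fold change -0.54 ± 0.067, SE; 95% interval -0.69 to -0.39; edgeR adjusted p = 0.000973). The fall passed in all 14 alternative settings, with log2 fold changes from -0.58, with ASXL1-MT-KI replicate 3 left out, to -0.48, with its replicate 2 left out.

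Foxo3, on chromosome 10 from 42181841 to 42276755, had 74.9, 70.4 and 73.8 CPM in ASXL1-MT-KI replicates 1 to 3, against 82.6, 88.5 and 93.3 CPM in wild type replicates 1 to 3. The ASXL1-MT-KI libraries lay close together and below all wild type libraries. Foxo3 averaged 73.0 ± 2.33 CPM in ASXL1-MT-KI and 88.1 ± 5.34 CPM in wild type cells and fell by 17.1% (log2 fold change -0.27 ± 0.058, 95% interval -0.40 to -0.14, edgeR adjusted p = 0.0129). Without ASXL1-MT-KI replicate 2 the adjusted p was 0.0609.

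The activators Gata1 and Klf1 had higher means in ASXL1-MT-KI cells, but their groups overlapped. Gata1, on the X chromosome from 7959260 to 7978071, had 79.0, 80.0 and 61.8 CPM in ASXL1-MT-KI replicates 1 to 3, against 64.9, 73.3 and 46.9 CPM in wild type replicates 1 to 3. The log2 fold change of 0.25 had a 95% interval of -0.20 to 0.71 and did not pass (edgeR adjusted p = 0.419). Klf1, on chromosome 8 from 84901928 to 84905291, had 94.5, 99.3 and 69.5 CPM in ASXL1-MT-KI replicates 1 to 3, against 63.9, 83.2 and 42.9 CPM in wild type replicates 1 to 3. Replicate 3 was lowest in both genotypes, and ASXL1-MT-KI replicate 3 lay below wild type replicate 2. The log2 fold change of Klf1 was 0.47 (95% interval -0.25 to 1.19, edgeR adjusted p = 0.338).

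Tal1, whose product pairs with E proteins in the LDB1 complex, was closest to the threshold of the genes that did not pass. It lies on chromosome 4 from 115056426 to 115071755 and had 138.7, 141.8 and 124.4 CPM in ASXL1-MT-KI replicates 1 to 3, against 108.4, 125.9 and 102.7 CPM in wild type replicates 1 to 3. ASXL1-MT-KI replicate 3 stood just below wild type replicate 2, the only overlap. The log2 fold change was 0.26 ± 0.082 (95% interval 0.08 to 0.45, edgeR adjusted p = 0.0586). Tal1 passed with total counts (adjusted p = 0.0262), where 11.5% of all genes rose and 5.66% fell, in DESeq2 (adjusted p = 0.0228), with wild type replicate 2 left out (adjusted p = 0.0148), with ASXL1-MT-KI replicate 3 left out (adjusted p = 0.0444) and without number 3 of both groups (adjusted p = 0.0300), where 9.61% of all genes rose and 8.21% fell. Its adjusted p ranged from 0.000303 with a block for the replicate number to 0.211 without ASXL1-MT-KI replicate 2.

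Gfi1b, the repressor gene on chromosome 2 from 28609450 to 28621982, had 83.9, 70.6 and 54.7 CPM in ASXL1-MT-KI replicates 1 to 3, against 50.5, 62.5 and 33.1 CPM in wild type replicates 1 to 3. It had the largest positive estimate of the 10 genes, a log2 fold change of 0.52, with a 95% interval of -0.20 to 1.24 (edgeR adjusted p = 0.295). A single wild type library moved 3 of these estimates either way. With wild type replicate 3 left out the log2 fold change was 0.30 for Gfi1b, 0.26 for Klf1 and 0.09 for Gata1, and with wild type replicate 2 left out it was 0.74 for Gfi1b, 0.72 for Klf1 and 0.40 for Gata1. Nfe2, on chromosome 15 from 103248212 to 103258403, had 124.7, 125.1 and 138.4 CPM in ASXL1-MT-KI replicates 1 to 3, against 108.4, 120.6 and 120.8 CPM in wild type replicates 1 to 3. Its libraries did not overlap between genotypes, but the gap was small and the gene did not pass (log2 fold change 0.15, 95% interval 0.01 to 0.29, edgeR adjusted p = 0.142).

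None of the cofactor genes passed in either direction. Zfpm1 (chromosome 8, 122282141 to 122337251) had 279.1, 255.4 and 212.2 CPM in ASXL1-MT-KI replicates 1 to 3, against 234.9, 296.0 and 204.0 CPM in wild type replicates 1 to 3, with a log2 fold change of 0.02 (95% interval -0.37 to 0.42). Lmo2 (chromosome 2, 103957986 to 103981878) had 334.7, 310.9 and 292.8 CPM in ASXL1-MT-KI replicates 1 to 3, against 330.9, 321.7 and 340.1 CPM in wild type replicates 1 to 3, with a log2 fold change of -0.08 (-0.21 to 0.05). Ldb1 (chromosome 19, 46031570 to 46045214) had 232.9, 235.7 and 207.7 CPM in ASXL1-MT-KI replicates 1 to 3, against 233.8, 261.1 and 230.2 CPM in wild type replicates 1 to 3, with a log2 fold change of -0.10 (-0.25 to 0.05). The groups overlapped for all 3 genes, and the intervals of Lmo2 and Ldb1 were the narrowest of those that include 0. Annotated exons of Ldb1 overlap those of Pprc1, so reads of these 2 genes may have been shared.

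**Figure D2:**
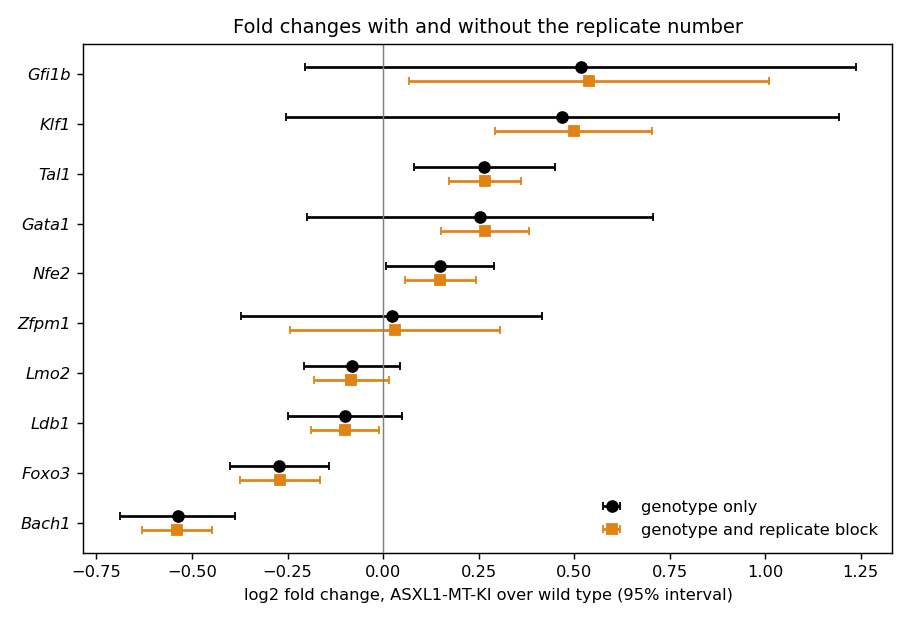
Log2 fold changes of the 10 regulators (horizontal axis, ASXL1-MT-KI over wild type) with 95% intervals, from the edgeR fit with genotype only (black circles) and with the replicate number as a block (orange squares). The estimate was 0.50 with the block and 0.47 without it for Klf1, and -0.54 in both fits for Bach1, while the intervals of Gata1, Klf1, Gfi1b and Ldb1 included 0 without the block and excluded it with the block.

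The replicate number changed what could be called. Same-numbered libraries deviated together across genes, with correlations of 0.253, 0.162 and 0.391 for numbers 1 to 3. ASXL1-MT-KI replicate 1 and wild type replicate 2 correlated at 0.163, so the number 2 libraries were no closer than this mismatched pair. The labels tie the numbers to no shared litter or day, and the pairing was taken from these same data. Within each same-numbered pair, Gata1, Klf1, Tal1, Nfe2 and Gfi1b were higher in the ASXL1-MT-KI library in 3 of 3 pairs, and Ldb1, Bach1 and Foxo3 were lower in 3 of 3. Of all tested genes 30.4% were higher and 28.0% lower in 3 of 3 pairs. With the number as a block in edgeR, Gata1 (adjusted p = 0.00169), Klf1 (adjusted p = 0.00603), Tal1 (adjusted p = 0.000303) and Nfe2 (adjusted p = 0.0164) rose, 4 of the 10 genes beside 16.7% of all tested genes. Gfi1b did not pass (adjusted p = 0.0943); its pairs differed by 0.73, 0.18 and 0.72 on the log2 scale. Bach1 and Foxo3 fell in this fit too, 2 of 10 beside 13.8% of all genes.

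Among libraries of a genotype, Klf1, Gfi1b and Gata1 varied most, followed by Zfpm1. Replicate 3 was lower than the mean of replicates 1 and 2 by -0.48 on the log2 scale for Klf1 in ASXL1-MT-KI and by -0.77 in wild type cells. The same difference was -0.49 in ASXL1-MT-KI and -0.76 in wild type cells for Gfi1b, and -0.36 and -0.56 in that order for Gata1. For Zfpm1 it was -0.33 in ASXL1-MT-KI and -0.37 in wild type cells. Replicate 3 was also lowest in both genotypes for Tal1, at -0.17 in ASXL1-MT-KI and -0.19 in wild type cells. The same held for Ldb1, at -0.17 and -0.10 in that order. Nfe2 and Bach1 were slightly higher in replicate 3, by 0.15 and 0.13 in ASXL1-MT-KI and by 0.08 and 0.05 in wild type cells. In an edgeR test of the replicate number with genotype in the fit, Gata1 (adjusted p = 0.000941), Klf1 (adjusted p = 0.0263) and Tal1 (adjusted p = 0.0349) differed between numbers, 3 of the 10 genes beside 6.44% of all tested genes. This count was 1 without wild type replicate 3 (beside 1.35% of all genes), 5 without wild type replicate 1 (beside 11.9%) and 6 without ASXL1-MT-KI replicate 2 (beside 16.7%). The summed level of the erythroid target genes was also lowest in replicate 3 of each genotype, and its part in the levels of Klf1, Gfi1b and Gata1 was not tested.

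**Figure D3:**
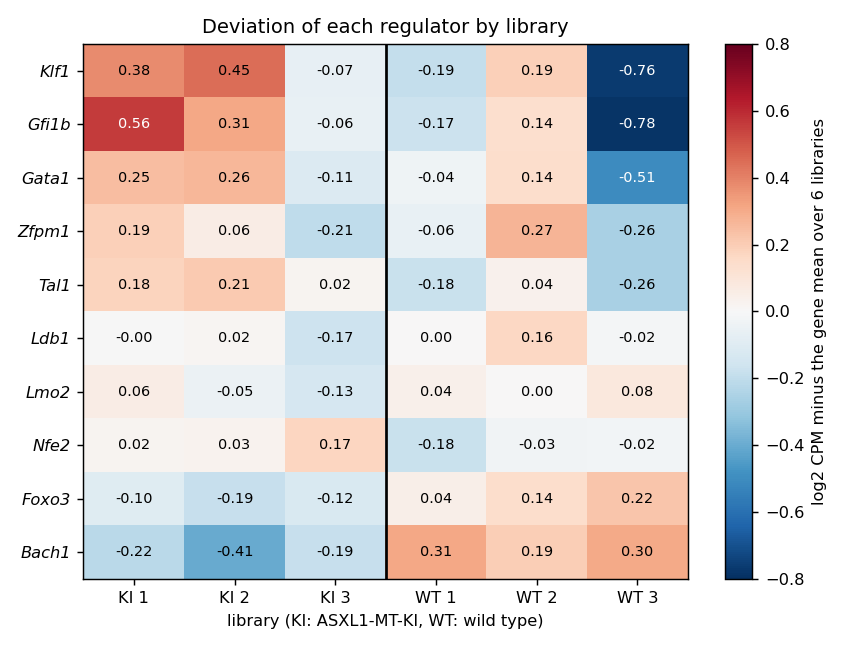
Log2 CPM of each regulator minus its mean over the 6 libraries (colour and printed value), with the ASXL1-MT-KI libraries left of the black line and the wild type libraries right of it. Klf1, Gfi1b and Gata1 were lowest in wild type replicate 3, at -0.76, -0.78 and -0.51, while Bach1 and Foxo3 were below their mean in all ASXL1-MT-KI libraries.

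Ratios of counts within a library, which do not depend on scaling, were compared for 3 pairs of factors that act at shared sites or oppose each other. Bach1 had 0.632, 0.553 and 0.582 counts per count of Nfe2 in ASXL1-MT-KI replicates 1 to 3, against 1.05, 0.869 and 0.935 in wild type replicates 1 to 3. The log2 ratio was lower by -0.69 in ASXL1-MT-KI cells without overlap, with an exact two-sided permutation p of 0.1, the smallest that 3 against 3 libraries can give (0.3 adjusted over the 3 ratios). Since Bach1 itself fell, this ratio restates that fall together with the higher Nfe2. Spi1, which encodes PU.1, a myeloid factor that GATA1 opposes, had 2.25, 2.01 and 2.71 counts per count of Gata1 in ASXL1-MT-KI replicates 1 to 3, against 2.71, 2.54 and 4.21 in wild type replicates 1 to 3. The difference in log2 ratio was -0.41 (exact permutation p = 0.2, adjusted 0.3), and it ranged over libraries left out in turn from -0.55 (wild type replicate 2) to -0.19 (wild type replicate 3). For Gata2, which GATA1 replaces on chromatin as red cell precursors mature, the ratio to Gata1 was 2.33, 1.99 and 3.22 in ASXL1-MT-KI replicates 1 to 3, against 2.68, 2.41 and 4.32 in wild type replicates 1 to 3, and the groups overlapped. That difference was -0.30 (exact permutation p = 0.4). It was -0.04 with wild type replicate 3 left out and -0.15 with ASXL1-MT-KI replicate 2 left out, and -0.49 and -0.47 when ASXL1-MT-KI replicate 3 or wild type replicate 2 was. Both ratios to Gata1 were lower in the ASXL1-MT-KI library in 3 of 3 same-numbered pairs, by -0.20, -0.28 and -0.42 for Gata2 and by -0.27, -0.34 and -0.63 for Spi1. An exact sign-flip permutation over the pairs gives p = 0.25 for each, the smallest that 3 pairs allow. Gata2 itself averaged 180.9 ± 20.2 CPM in ASXL1-MT-KI and 184.5 ± 15.9 CPM in wild type cells.

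**Figure D4:**
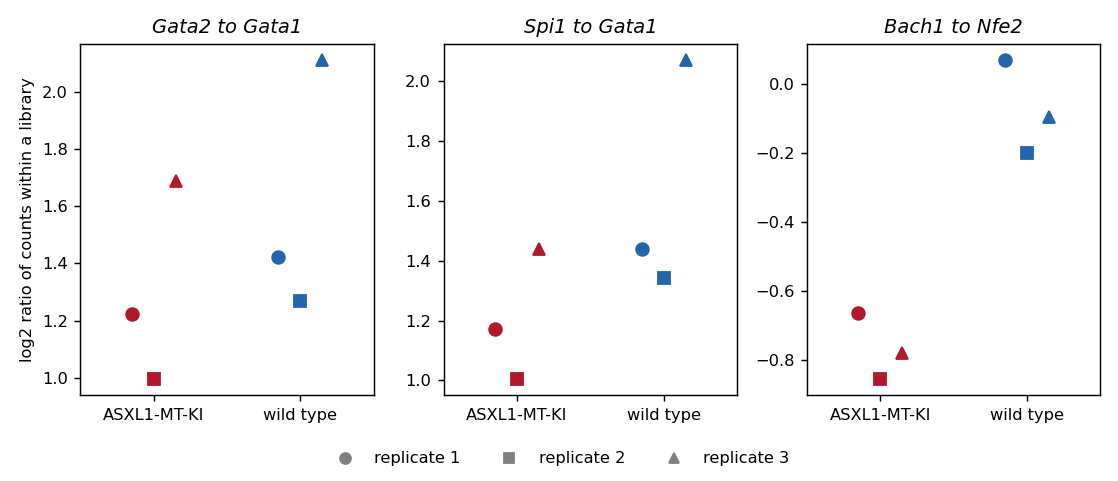
Log2 ratio of counts within each library (vertical axes, each with its own range) for Gata2 to Gata1, Spi1 to Gata1 and Bach1 to Nfe2, with ASXL1-MT-KI libraries in red on the left and wild type libraries in blue on the right. Bach1 to Nfe2 separated the genotypes, at -0.86 to -0.66 in ASXL1-MT-KI and -0.20 to 0.07 in wild type libraries, while replicate 3 had the highest ratio to Gata1 in both genotypes.

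Genes with the most similar pattern over the 6 libraries were found by the root mean square difference of log2 CPM, each gene centred on its own mean, among 9014 genes with a mean of at least 10 CPM. Closest to Klf1 were Ank1 (0.048), which encodes the red cell membrane protein ankyrin, the amino acid transporter gene Slc38a5 (0.053) and Add2 (0.060), which encodes an adducin of the red cell membrane skeleton, against a median of 0.41 over all these genes. Closest to Gata1 were Asns (0.036), which encodes asparagine synthetase, Cpox (0.038), a haem synthesis enzyme gene, and Isg20 (0.046). Bach1 was closest to Hif1a (0.038), which encodes the oxygen-regulated factor HIF-1 alpha, to the glucose transporter gene Slc2a1 (0.039) and to Cobll1 (0.041). Hif1a had 82.4, 72.0 and 82.9 CPM in ASXL1-MT-KI replicates 1 to 3, against 122.2, 103.8 and 113.7 CPM in wild type replicates 1 to 3. Fam120aos (0.024), Fbrs (0.025) and Rcn3 (0.029) were closest to Foxo3.

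Erythroid target genes of GATA1 and KLF1, a list of 46 for membrane, haem and iron handling with globins, were mostly higher in ASXL1-MT-KI cells. Of the 39 tested members 36 had higher means, beside 6806 of all 13548 tested genes. The summed list was lowest in replicate 3 of each genotype, so its genes are not independent observations. In the main edgeR test 5 rose and none fell. Before adjustment 10 were higher and 2 lower (unadjusted p under 0.05), beside 2194 higher and 1927 lower of all tested genes. Falls numbered 1 by DESeq2 and 0 by limma-voom. The shares over all tested genes were 8.29% for rises and 7.69% for falls. The list's median log2 fold change was 0.34, against 0.00 over all tested genes. Slc4a1, the anion exchanger of the red cell, had 6.13, 4.98 and 5.64 CPM in ASXL1-MT-KI replicates 1 to 3, against 2.59, 2.66 and 2.54 CPM in wild type replicates 1 to 3 (edgeR adjusted p = 0.000815). Uros, of haem synthesis, rose by 0.55 on the log2 scale, Gypc, a glycophorin gene, by 0.35, and Dmtn, which encodes the membrane skeleton protein dematin, by 0.87. Ppox, also of haem synthesis, rose too. The count of rises was 28 with the replicate block, where 16.7% of all genes rose, 24 without number 3 of both groups, 8 in DESeq2 and with total counts, 7 by limma-voom, 2 without ASXL1-MT-KI replicate 1 or 2, and 1 without wild type replicate 1. Falls numbered 2 with the block and 1 without number 3 of both groups, without ASXL1-MT-KI replicate 3 and with DESeq2 size factors.

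Many FOXO3 target genes fell. Of 24 genes for antioxidant defence, autophagy, cell cycle exit and metabolism, 12 fell and none rose in edgeR, nor by DESeq2 or limma-voom. The background of falls is 7.69% of all tested genes. At an unadjusted p under 0.05, 0 were higher, beside 2194 of all 13548 tested genes. The median log2 fold change was -0.25. Ccng2, the cyclin G2 gene, averaged 41.2 ± 0.949 CPM in ASXL1-MT-KI and 57.4 ± 3.47 CPM in wild type cells (log2 fold change -0.48, edgeR adjusted p = 0.00101). Ulk1, the kinase that starts autophagy, fell by 0.39, the antiproliferative gene Btg1 by 0.62 and Irs2, an adaptor of insulin signalling, by 0.51 on the log2 scale. The antioxidant genes Cat and Sod2 did not pass, with log2 fold changes of 0.03 and -0.02. Neither did Cdkn1b (0.07), Bnip3 (-0.06), Bnip3l (0.01) and Txnip (-0.14). All of these that did not pass were named after their values were seen. Many of these genes answer to other signals than FOXO3 as well, and Foxo1, the paralog with shared sites, also fell, at 13.6 ± 0.940 CPM in ASXL1-MT-KI and 18.2 ± 0.436 CPM in wild type cells (edgeR adjusted p = 0.00639). The falls numbered 12 without number 3 of both groups and 8 to 11 when 1 library was left out.

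Genes that BACH1 represses in other cell types were split: of 18 genes, 3 rose and 3 fell, beside 8.29% and 7.69% of all tested genes, with a median log2 fold change of 0.03. Slc40a1, the gene of the iron exporter ferroportin, had 49.4, 49.6 and 47.9 CPM in ASXL1-MT-KI replicates 1 to 3, against 38.3, 33.5 and 29.9 CPM in wild type replicates 1 to 3 (log2 fold change 0.53, edgeR adjusted p = 0.00325). Me1, the malic enzyme gene, rose by 1.86 on the log2 scale at a low level, with 33, 23 and 30 counts in ASXL1-MT-KI replicates 1 to 3, against 11, 6 and 6 in wild type replicates 1 to 3. The third rise was of Srxn1, a sulfiredoxin gene. Txnrd1, which encodes thioredoxin reductase, fell by 0.32, and Sqstm1, the autophagy receptor gene, by 0.62. The third fall was of Herpud1. Hmox1, the haem oxygenase gene and best known BACH1 target, named for that role after its values were seen, had 2.92, 2.43 and 5.54 CPM in ASXL1-MT-KI replicates 1 to 3, against 2.20, 2.09 and 2.59 CPM in wild type replicates 1 to 3, and did not pass (log2 fold change 0.66, edgeR adjusted p = 0.173). With the replicate block in edgeR, Hmox1 passed (log2 fold change 0.59, adjusted p = 0.0203), and 7 of the 18 rose and 4 fell, beside 16.7% and 13.8% of all genes; the falls numbered 1 without ASXL1-MT-KI replicate 2 or wild type replicate 1 and 5 without wild type replicate 3.

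Several partners of the regulators fell. Of 24 partner genes 7 fell and none rose in edgeR, beside 7.69% and 8.29% of all tested genes, with 0 rises in DESeq2 and limma-voom. At an unadjusted p under 0.05, 2 were higher, beside 2194 of all 13548 tested genes. The median log2 fold change was -0.08. Mafk, the small Maf gene that supplies the partner of NF-E2 and BACH1, had 100.6, 99.6 and 98.9 CPM in ASXL1-MT-KI replicates 1 to 3, against 154.8, 149.8 and 147.2 CPM in wild type replicates 1 to 3 (log2 fold change -0.59, edgeR adjusted p = 8.02e-05). Maff, another small Maf gene, fell to 31.5 ± 0.787 CPM in ASXL1-MT-KI cells, against 57.0 ± 4.37 CPM in wild type cells (log2 fold change -0.86, edgeR adjusted p = 9.2e-05). Mafg, the remaining small Maf gene, chosen after its values were seen, averaged 37.2 ± 2.35 CPM in ASXL1-MT-KI and 37.2 ± 3.50 CPM in wild type cells (95% interval of the log2 fold change -0.18 to 0.18). Runx1, also listed as a partner gene, fell by 0.35 and Gatad2b, of the NuRD complex that FOG1 recruits, by 0.31. Within the LDB1 complex, Ssbp2, Tcf4 and the corepressor gene Cbfa2t2 (log2 fold change -0.18, edgeR adjusted p = 0.0347) were among the falls, while the E protein genes Tcf3 and Tcf12 (log2 fold changes -0.09 and -0.07) and its relative Cbfa2t3 (-0.17), all named after their values were seen, did not pass. The rises numbered 2 with total counts and 1 with the block, without number 3 of both groups and without ASXL1-MT-KI replicate 3. The falls numbered 10 with the block, where 13.8% of all genes fell, and 5 to 6 when 1 library was left out. They numbered 5 with total counts, beside 5.66% of all genes, and 5 without number 3 of both groups, beside 8.21%.

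Among 13 tested paralogs of the regulators 3 rose and 2 fell, beside 8.29% and 7.69% of all tested genes. Lmo1, of the same LIM-only family as Lmo2, had 16.8, 16.4 and 17.1 CPM in ASXL1-MT-KI replicates 1 to 3, against 9.94, 8.66 and 8.94 CPM in wild type replicates 1 to 3 (log2 fold change 0.87, edgeR adjusted p = 0.000279). Lyl1, the close relative of Tal1, averaged 151.2 ± 5.13 CPM in ASXL1-MT-KI and 128.8 ± 4.15 CPM in wild type cells (log2 fold change 0.23, edgeR adjusted p = 0.0127), and Gfi1, the relative of Gfi1b with a role in granulocytes, averaged 85.9 ± 12.9 CPM in ASXL1-MT-KI and 58.7 ± 7.70 CPM in wild type cells (edgeR adjusted p = 0.0268). Bach2, the lymphoid relative of Bach1, fell by 0.70 beside Foxo1. The block gave 6 rises, beside 16.7% of all genes; without wild type replicate 1 there were 1 rise and 1 fall, and without ASXL1-MT-KI replicate 2 there was 1 fall. Of 12 lineage factors that oppose or precede GATA1, 2 rose (Myb and Gfi1) and 2 fell (Runx1 and Cebpb), beside the same shares of all genes, with a median of -0.01. Myb, a progenitor factor, averaged 968.1 ± 30.9 CPM in ASXL1-MT-KI and 842.1 ± 22.6 CPM in wild type cells, and Spi1 168.6 ± 8.82 and 186.4 ± 10.5 CPM in the same order (edgeR adjusted p = 0.130, and 0.0404 with the block). None of these rose without ASXL1-MT-KI replicate 1 or wild type replicate 1 or 2, 4 rose with total counts, and 5 rose and 4 fell with the block, beside 16.7% and 13.8% of all genes.

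**Figure D5:**
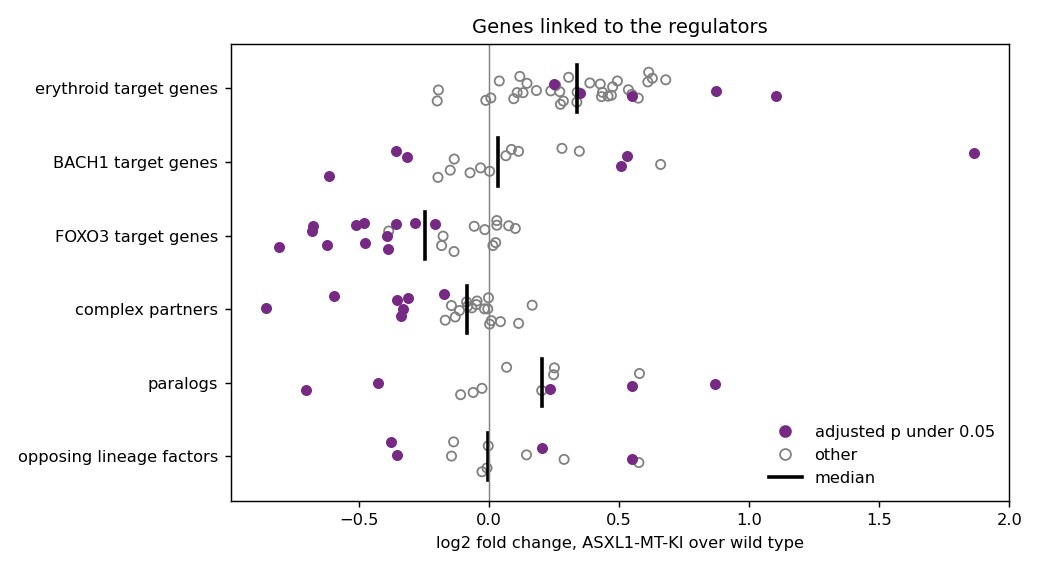
Log2 fold change (horizontal axis, ASXL1-MT-KI over wild type) of the tested genes in 6 lists linked to the regulators, with filled points at an edgeR adjusted p under 0.05 and black bars at the list medians. The erythroid target genes centred on 0.34 and the FOXO3 target genes on -0.25, while the BACH1 target genes spread to both sides of a median of 0.03.

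Several markers of the other GATA1-dependent lineages that the LK gate can hold were lower in ASXL1-MT-KI cells. Over all tested genes 7.69% fell and 8.29% rose, and with the block 13.8% fell and 16.7% rose, beside which each count of markers stands. At an unadjusted p under 0.05, 2194 of all 13548 tested genes were higher and 1927 lower. Of 15 tested megakaryocyte markers 5 fell and 1 rose, and the summed list lay between 342.9 and 474.0 CPM in ASXL1-MT-KI libraries and between 498.4 and 636.3 in wild type libraries. Much of this gap lay in Thbs1, 1 of the falls. It had 3033, 1241 and 1506 counts in ASXL1-MT-KI replicates 1 to 3, against 10626, 6451 and 5326 in wild type replicates 1 to 3. Pf4, Vwf, Gp1ba and Gp9 did not pass, with log2 fold changes of -0.04, -0.04, -0.01 and -0.01. These genes and Thbs1 were named after their values were seen. Itga2b, an integrin gene of platelets, fell by 0.40 and Treml1 by 0.90, while Gp5 rose by 0.75 on the log2 scale. The falls numbered 3 when number 3 of both groups, ASXL1-MT-KI replicate 2 or 3, or wild type replicate 1 or 2 was left out, and Gp5 did not pass without ASXL1-MT-KI replicate 1 or 2 or wild type replicate 1. Eosinophil markers summed to 127.9 to 322.8 CPM in ASXL1-MT-KI and 362.6 to 405.1 in wild type libraries. Of the tested ones 8 of 8 had lower means, beside 6742 of all 13548 tested genes. Ccr3, too low to be tested and named after its values were seen, went the other way. It had 8, 9 and 32 counts in ASXL1-MT-KI replicates 1 to 3, against 2, 1 and 5 in wild type replicates 1 to 3. The 2 that fell, Ear1 and Ear6, are members of a family of close copies whose counts are uncertain. Ear6 was near 0, with 0, 4 and 1 counts in ASXL1-MT-KI replicates 1 to 3, against 11, 23 and 9 in wild type replicates 1 to 3. Leaving out wild type replicate 1 or 2 gave 1 fall and leaving out ASXL1-MT-KI replicate 3 gave 4; there were 3 with the block, without Ear1 (adjusted p = 0.0549 in edgeR), in DESeq2 and without number 3 of both groups, and 5 in limma-voom. Mast cell and basophil markers overlapped, at 234.4 to 366.1 CPM in ASXL1-MT-KI and 279.8 to 373.7 in wild type libraries; none of 7 tested passed in edgeR, 2 were lower at an unadjusted p under 0.05, 2 fell in DESeq2 and in limma-voom, and 4 fell with the block. Mast cell tryptase genes Tpsb2 and Tpsab1 had at most 3 counts. Among 10 stem and progenitor markers Flt3, Cd34, Mecom, Meis1 and Hlf fell and none rose, nor by DESeq2 or limma-voom (0 higher at an unadjusted p under 0.05), with 3 falls without ASXL1-MT-KI replicate 2. Markers of gated-out lineages overlapped, at 47.1 to 61.0 CPM in ASXL1-MT-KI and 40.8 to 62.8 CPM in wild type libraries, and 1 of 6 tested, the B cell gene Cd79a, fell. With the block 3 of these fell and 1 rose; none fell when wild type replicate 1 was left out, 2 fell when ASXL1-MT-KI replicate 3 or number 3 of both groups was, and 2 rose when wild type replicate 3 was. The part of these shifts in the levels of Gata1, Gfi1b, Nfe2 and Tal1, which these lineages also use, was not tested.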

How the data were processed

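Per the submitters' processing notes, reads were aligned with HISAT2 2.0.4 to mm10; the sources used here give neither the counting tool nor its annotation or use of strand. The labels' protocols give 200 ng of RNA as input and paired-end reads of 124 bp. The values deposited by the authors are raw counts, with 24421 gene symbols as rows. The 10 genes, the linked lists and the tests were chosen with earlier results of these data known. ASXL1-MT-KI was compared with wild type, 3 libraries each, in edgeR 4.0.16 (R 4.3.3) with filterByExpr (minimum count 10), TMM factors of 0.972 to 1.03, a model of genotype alone tested by robust quasi-likelihood, and p-values adjusted by Benjamini-Hochberg across 13548 genes, with a threshold of 0.05. Standard errors were derived from the estimate and its F statistic, and intervals use the t distribution with the moderated degrees of freedom. All p-values measure the spread between these libraries, whose animals are not given.

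Named genes were the 10 regulators, up to 4 genes of each list by lowest p, the 3 genes of most similar pattern, Asxl1 and the exceptions stated. A gene that this rule names is not reported here. List symbols were matched directly or through RefSeq synonyms (Epb4.1, Epb4.2); Ahsp and Ly6g were not analysed here. Coordinates and exon lengths are from GENCODE M21 (GRCm38, called mm10 by UCSC). Replicate numbers come from the titles. Deviations from the group mean correlated across genes, which are not independent, at 0.253, 0.162 and 0.391 between same-numbered libraries, all over 0.1, so the numbers were taken to pair libraries; ASXL1-MT-KI 1 and wild type 2 also correlated, at 0.163. No 2 libraries of a genotype agreed within sampling noise. On simulated counts for 13548 genes the genotype test recovered 69.2% of 1.5-fold and 86.6% of 2-fold changes, and 6.11% of 180 calls were false. The simulated counts had far fewer changed genes and no shared effect of the replicate number. These rates therefore need not hold for the deposited counts. Alternatives used DESeq2 1.42.0, limma-voom (limma 3.58.1), DESeq2 size factors, total counts, an unfiltered table, a stricter filter (CPM above 1 in 3 libraries), the replicate block, each library left out and number 3 of both groups left out. Figures were drawn with matplotlib 3.10.9.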

Additional observations from a re-analysis of the deposited data

How the results depend on the processing

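Of the alternatives to the genotype comparison, the replicate block moved the counts most: 4132 genes passed in place of 2165, and 4 of the 10 regulators rose in place of 0. One regulator, Tal1, rose with total counts, in DESeq2 and with number 3 of both groups left out, 1 in each. Leaving out 1 library gave 1128 to 2257 genes in all, 0 to 1 regulators that rose, 1 to 2 that fell and 1 to 6 that differed by replicate number. The estimate for Zfpm1 turned negative in 4 of these fits, within a range of -0.0927 to 0.18, namely -0.0927 and -0.0068 when wild type replicate 3 or 1 was dropped, and -0.0726 and -0.0027 when it was ASXL1-MT-KI replicate 1 or 2. The 3 ratios kept their direction in the 7 alternatives that could move them (the block leaves a mean difference as it is); each moved by less than the larger of the SDs of the genotypes, though Gata2 to Gata1 came to -0.04 without wild type replicate 3. The replicate block changed no call of the regulators other than those of Gata1, Klf1, Tal1 and Nfe2. The cause of these changes was not tested. The 10 regulators had 1343 to 16060 counts per library; precision at low counts limits low genes such as Me1 more than the regulators.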
